A study of Mus musculus with 35 samples.

Results

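Smooth muscle and myofibroblast genes of the lung were followed as a set of 10: Acta2, Actg2, Myh11, Cnn1, Tagln, Lmod1, Des, Synpo2, Hhip and Pdgfra. They were chosen by symbol, and all 10 passed the filter on low counts that left 20606 of the 57186 genes of the count table to test. The data are 35 RNA-seq libraries of whole mouse lung. KO mice were RORaf/fIl7riCre, so that Cre made from the Il7r locus deletes Rora in cells with a history of Il7r expression, which are mostly lymphoid. C mice were RORaf/f, with the same floxed Rora alleles and no Cre named in their label. Both genotypes were sampled 2, 5 and 7 days after naphthalene and as untreated mice with the day labels 2, 5 and 7, which gives 12 groups of 3 libraries, except 2 for KO mice 7 days after naphthalene. The series gives the age as 14 days and does not say how the untreated day labels relate to age. Nothing states that the libraries of a group came from separate animals, so each p measures the spread between libraries. In whole lung, fewer cells of a type and less RNA per cell cannot be told apart.

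Contractile smooth muscle surrounds airways and vessels of the lung, and its force comes from actin filaments pulled by smooth muscle myosin, with regulators that bind actin and a desmin scaffold that passes tension on. In the mouse, alveolar myofibroblasts are a transient postnatal population that expresses Pdgfra and lays down elastin while the alveoli are being divided. Hedgehog ligands from the epithelium signal to this mesenchyme, where Hhip, a hedgehog-binding inhibitor and itself a hedgehog target, limits the signal. Naphthalene, once metabolised in the airway epithelium, kills club cells, and the surrounding lung then repairs.

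RefSeq promoter windows (GRCm38.p6; the submitters' processing notes name GRCm39, so positions apply to the older build only) were available for 7 of the 10 genes, all but Myh11, Tagln and Actg2. The 120 bases before the gene start are shown for Acta2, the most used marker of contractile smooth muscle, and for Hhip, the gene that passed the test 2 days after naphthalene. Both lie on the minus strand, Acta2 at chr19:34255374-34255493 and Hhip at chr8:80058009-80058128. Capitals mark CArG boxes, the motif bound by serum response factor, with 1 inner base allowed outside A and T and either strand searched.
Acta2: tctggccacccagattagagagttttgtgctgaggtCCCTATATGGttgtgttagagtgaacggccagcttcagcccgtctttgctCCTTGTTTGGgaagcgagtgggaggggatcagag
Hhip: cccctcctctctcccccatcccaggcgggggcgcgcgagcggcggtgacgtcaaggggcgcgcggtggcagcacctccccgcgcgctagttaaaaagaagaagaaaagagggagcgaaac
The 2 capital runs of Acta2 start 84 and 34 bases before the gene start. The other 6 windows, Hhip included, held no match of this motif in 300 bases, and 9.98% of all 32851 RefSeq windows held one. A GLI motif, GACCACCCA on either strand, was in 0.253% of all windows and in none of the 7.

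Library totals ran between 10.7 and 21.06 M counts (median 16.16 M), so that 1 count was worth 0.049 to 0.089 CPM (counts scaled to a common library total with TMM factors). Rora, the floxed gene, had 25.2, 45.3 and 64 CPM (lowest, median, highest) in 17 KO libraries, against 32.1, 42.7 and 53.4 CPM in 18 C libraries; counts over the whole gene in whole lung do not check the deletion. The lung epithelial genes Sftpc (4850 to 20900 CPM) and Scgb1a1 (376 to 17100 CPM) were present in every library. Library names carry 1 of 8 letters that the labels do not explain. All naphthalene libraries of day 2 share the letter a and all libraries of day 7 share p. At day 5, naphthalene libraries carry b, except KO replicate 2 with i. Untreated libraries carry k at day 2, except KO replicate 1 and C replicate 3 with n, and f at day 5, except KO replicate 2 and C replicate 1 with o. At days 2 and 5, therefore, naphthalene and letter cannot be told apart, nor can the untreated day and the letter. Within untreated day 2, 8.63% of genes differed between n and k, and within untreated day 5, 2.05% between o and f.

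**Figure D1:**
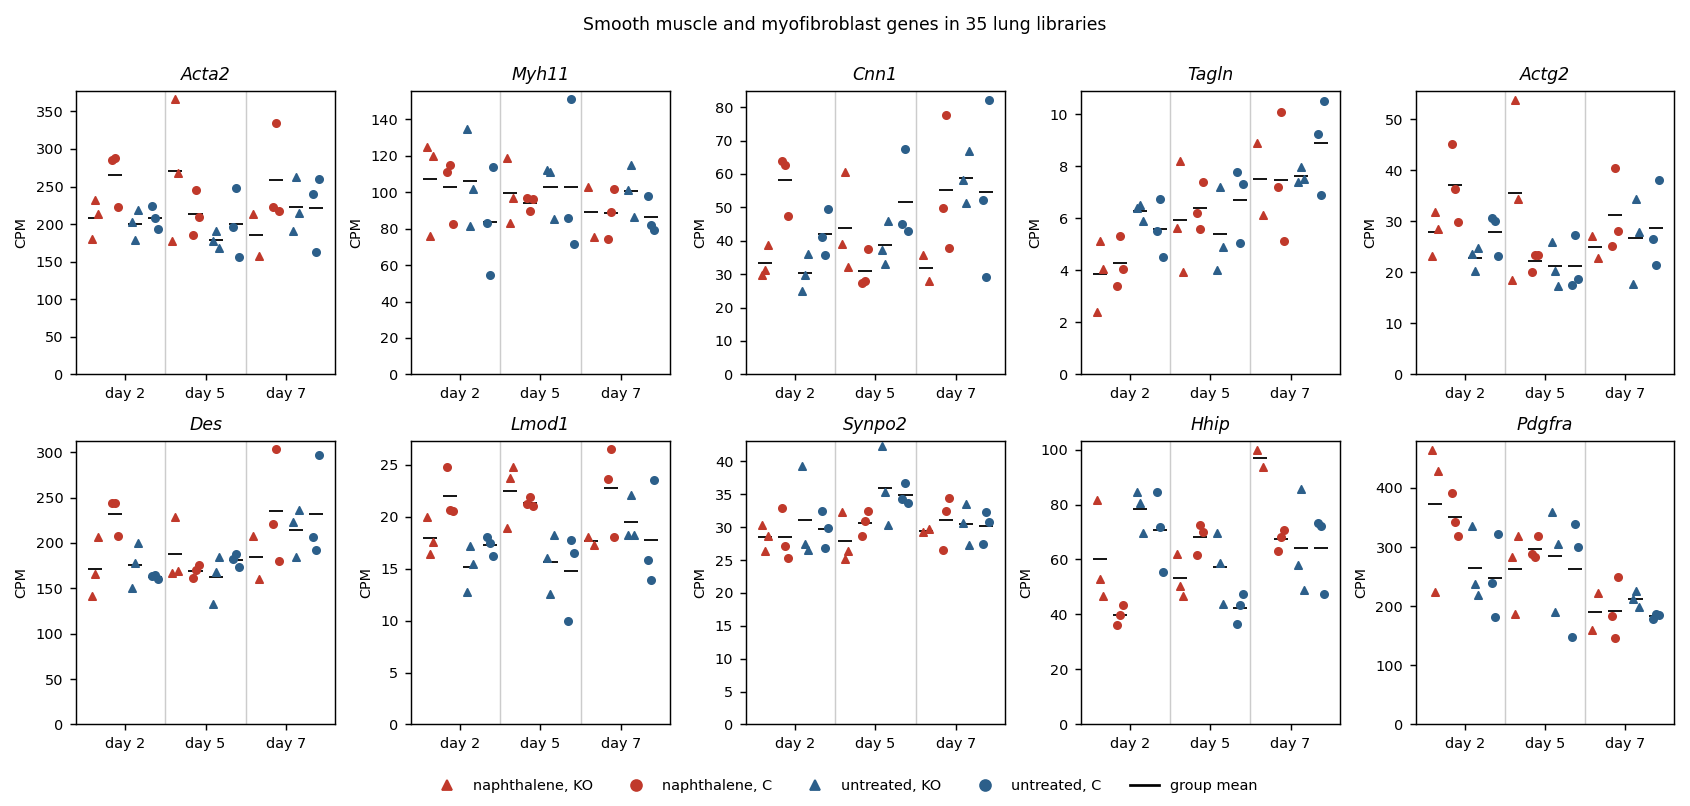
CPM of each gene in each of the 35 libraries, by day, with naphthalene (red) left of untreated (blue) and KO (triangles) left of C (circles) within each treatment; black lines are group means. Hhip at day 2 was lower after naphthalene in C mice without overlap, Lmod1 at day 5 was higher after naphthalene without overlap within each genotype, and most other groups overlap.

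All 10 genes were detected in all 35 libraries. Over these, Acta2, the alpha smooth muscle actin, ran between 156 and 367 CPM (median 214 CPM), and Actg2, the gamma smooth muscle actin, between 17.3 and 53.8 CPM (median 26 CPM). Myh11, the smooth muscle myosin heavy chain, ran between 54.4 and 151 CPM with a median of 96.6 CPM. The calponin gene Cnn1, whose protein slows actin-activated myosin, ran between 25 and 82.1 CPM (median 39 CPM). Lmod1, leiomodin, which starts new actin filaments, had 9.97 to 26.5 CPM (median 18.1 CPM). Des, the muscle intermediate filament protein desmin, had 133 to 304 CPM, and Synpo2, an actin-bundling protein of the Z-disc, 25.2 to 42.3 CPM. Hhip spanned 36.2 to 100 CPM and Pdgfra, the receptor for PDGF-A, 146 to 464 CPM. The ratio of the highest to the lowest library was smallest for Synpo2 (1.68) and largest for Tagln (4.38), and the ratio of the highest to the lowest group mean ran between 1.27 (Myh11) and 2.44 (Hhip).

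Tagln, the actin-binding transgelin, was listed at only 2.39 to 10.5 CPM (36 to 190 counts). In GENCODE M21 (GRCm38), 1241 of its 1988 exon bases (62.4%) overlap the antisense gene Gm48529, which had 35 to 165 counts, and no strand setting is given in the sources used here, so Tagln values are uncertain. Acta2 and Actg2 transcripts aligned over 1143 bases with 84.1% identity and no identical run longer than 29 bases.

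At day 2 after naphthalene, 1 of the 10 genes passed the test, Hhip, and it fell. Its level was 36.2, 45 and 81.5 CPM (lowest, median, highest) in 6 naphthalene libraries, against 55.5, 76.1 and 84.7 CPM in 6 untreated libraries. The means were 50.1 ± 16.4 CPM after naphthalene and 74.4 ± 11.3 CPM in untreated mice (SD, n = 6 each), a log2 difference of -0.60 ± 0.15 (SE; edgeR quasi-likelihood test averaged over both genotypes, adjusted p = 0.00692). Among all genes tested, 9.90% were called in this comparison, 5.60% higher and 4.30% lower, so 1 of 10 is near the background share. The median log2 difference of the 10 genes was 0.22, against -0.04 over all genes, with 7 of 10 above 0.

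By genotype, Hhip had 81.5, 52.8 and 46.7 CPM in KO mice 2 days after naphthalene, against 84.7, 80.6 and 69.6 CPM in untreated KO mice. In C mice it had 36.2, 39.9 and 43.4 CPM after naphthalene, against 84.5, 71.7 and 55.5 CPM in untreated mice. The C groups did not overlap, and the KO groups overlapped through 1 naphthalene library at 81.5 CPM. The difference was -0.83 ± 0.21 (log2 ± SE) in C mice (adjusted p = 0.0178; 3.76% of all genes called, 1.18% lower) and -0.38 ± 0.21 in KO mice (adjusted p = 0.406; 2.74% of all genes called). The call in C mice was lost without C naphthalene replicate 1 or 2 or untreated C replicate 1 or 2, with adjusted p between 0.0529 and 0.149. The genotypes were not shown to differ in this response: KO minus C was 0.45 with a 95% interval of -0.16 to 1.05 (log2).

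At the same time the ligand gene Shh fell. It averaged 19.9 ± 4.6 CPM after naphthalene and 38.4 ± 6.63 CPM in untreated mice at day 2 (SD, n = 6 each; log2 difference -0.94 ± 0.15 SE, adjusted p = 3.64e-05). Of 14 hedgehog pathway genes 0 were called higher and 1, Shh, lower, with a median of -0.15. Ptch1, the receptor and a hedgehog target, had 86.4 ± 14.7 CPM after naphthalene and 97 ± 23.5 CPM untreated, and the transcription factor and target Gli1 had 18.2 ± 4.14 CPM and 20.5 ± 7.61 CPM in the same order. Neither passed the test (-0.17 ± 0.14 and -0.13 ± 0.22), nor did the co-receptor Gas1 (-0.43 ± 0.18). Without the 5 libraries of letters n, o and i, 5 hedgehog genes were called lower. That fit was chosen after seeing the data, and the share of all genes called lower in it is not given.

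Pdgfra stood at 362 ± 86.2 CPM in naphthalene libraries and 256 ± 60.4 CPM in untreated libraries at day 2 (SD, n = 6 each). Its libraries ran 224, 367 and 464 CPM after naphthalene (lowest, median, highest), against 182, 238 and 336 CPM untreated, and the groups overlapped. The highest untreated values, 322 and 336 CPM, were those of the 2 n libraries, against 182 to 239 CPM in the 4 k libraries (n minus k 0.59 ± 0.21 log2, adjusted p = 0.0677). The log2 difference of 0.50 ± 0.20 missed the threshold (adjusted p = 0.111). It passed without the libraries of letters n, o and i (0.72, adjusted p = 0.00301), with terms for these letters (0.72, adjusted p = 0.00234), without the filter on low counts (0.52, adjusted p = 0.0086) and without KO naphthalene replicate 2 (0.63, adjusted p = 0.0309). Its ligand gene Pdgfa fell to 80.4 ± 12.6 CPM after naphthalene, against 140 ± 33.1 CPM untreated (log2 -0.80 ± 0.17, adjusted p = 0.00144).

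The 8 contractile and cytoskeletal members gave no call at day 2. Acta2 averaged 237 ± 42.3 CPM after naphthalene and 204 ± 16.3 CPM untreated (95% interval of the fold 0.924 to 1.43). Lmod1 had 20 ± 2.92 CPM after naphthalene and 16.2 ± 1.9 CPM untreated (log2 0.30 ± 0.14, adjusted p = 0.2). Tagln, the uncertain one, had 4.06 ± 1.09 CPM after naphthalene and 5.92 ± 0.823 CPM untreated (log2 -0.54 ± 0.21, adjusted p = 0.0966), and passed only without KO naphthalene replicate 2 (-0.67, adjusted p = 0.0437). As the mean of both genotypes, Myh11, Cnn1, Actg2, Des and Synpo2 lay between -0.09 and 0.35 on the log2 scale, with intervals that included 0. In C mice Des had 208 to 244 CPM after naphthalene, against 160 to 165 CPM untreated. That difference was not called (0.51 ± 0.19, adjusted p = 0.159), and in KO mice it was -0.04 ± 0.19. Lmod1 in C mice (above) and Tagln in KO mice (below) also did not overlap and were not called. How many of all genes failed to overlap was not counted. With so few libraries in a group, non-overlap is only a description throughout.

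**Figure D2:**
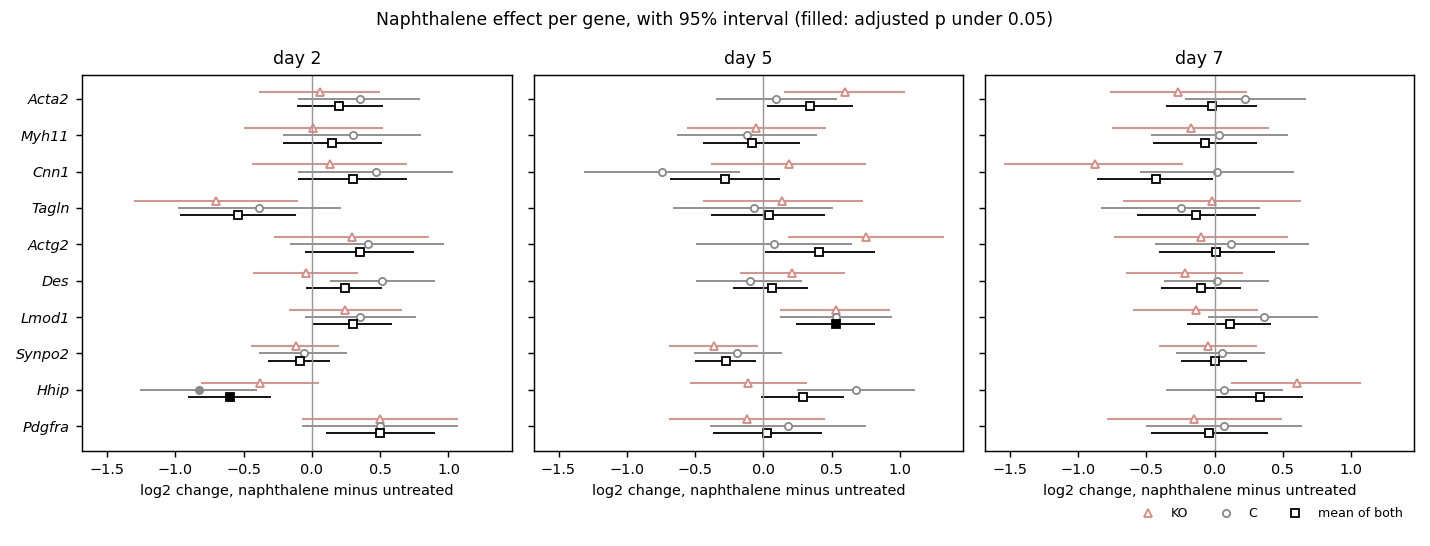
Log2 difference of naphthalene minus untreated for each gene at days 2, 5 and 7, in KO mice, C mice and as the mean of both, with 95% intervals; filled symbols have an adjusted p under 0.05. Hhip at day 2 and Lmod1 at day 5 are the filled mean values, and no day 7 symbol is filled.

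Other genes of the same programmes moved in both directions at day 2. Over all genes, 5.60% were called higher and 4.30% lower there. Of 20 further contractile genes, 2 rose, Tinagl1 (0.82 ± 0.22, log2 ± SE), coding a basement membrane protein, and Kcnmb1 (0.43 ± 0.14), the beta subunit of the smooth muscle BK channel. Mustn1 (-0.96 ± 0.17), Smtn (-0.42 ± 0.13), which codes smoothelin, and Ppp1r12b (-0.41 ± 0.11), a subunit of myosin phosphatase, fell. The list's median was -0.09, and its highest members Csrp1 (-0.44 ± 0.19) and Flna (-0.18 ± 0.13) were not called. Of 13 further alveolar myofibroblast genes 3 fell, Nrep (-1.79 ± 0.23, adjusted p = 2.06e-06), Stc1 (-0.82 ± 0.20) and P2ry14 (-0.51 ± 0.17), and 0 rose. Eln, elastin, averaged 11100 ± 3390 CPM after naphthalene and 10300 ± 5200 CPM untreated and was not called (0.09 ± 0.30).

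Of 13 genes of PDGF and TGF-beta signalling, Tgfbr3, the betaglycan co-receptor, rose (0.65 ± 0.15), and Pdgfa and the ligands Tgfb3 (-0.63 ± 0.18) and Tgfb2 (-0.58 ± 0.12) fell. Ltbp2 (-0.12 ± 0.15) and Pdgfrb (-0.07 ± 0.11) were not called. Of 11 tested smooth muscle regulators 0 were called by edgeR or DESeq2, and 1 had an unadjusted p under 0.05, as did 4769 of all 20606 genes. The highest regulators, Hopx and Foxf1, gave 0.06 ± 0.12 and -0.35 ± 0.14. Single markers of neighbouring cell types were called, while most of each list was not. Of 9 pericyte genes Lamc3 (2.39 ± 0.24), Rgs5 (1.15 ± 0.23) and Notch3 (0.57 ± 0.17) rose and 6 were not called, with 5 of 9 above 0 and a median of 0.02. Of 10 fibroblast genes Pi16 (0.98 ± 0.21) and Dcn (0.69 ± 0.14) rose, Dpt fell (-0.66 ± 0.18) and 7 were not called, with 4 of 10 above 0 and a median of -0.10. The summed level of the pericyte genes was 844 to 998 CPM after naphthalene, against 736 to 972 CPM untreated. Of 10 cardiac genes Actc1 fell (-0.69 ± 0.16) and 9 were not called, with a median of -0.07, and their sum was 278 to 444 CPM after naphthalene, against 342 to 508 CPM untreated. The part of these cells in the differences of Hhip and Pdgfra was not tested. Skeletal muscle genes summed to 6.35 to 13.9 CPM over all groups, with Myh4 at 0 in 30 of 35 libraries and Tnnc2 at 0 in 25.

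At day 5 after naphthalene, Lmod1 was the 1 gene called, and it rose. It had 18.9, 23.7 and 24.8 CPM in KO mice after naphthalene, against 16, 12.6 and 18.2 CPM in untreated KO mice. In C mice it had 21.2, 21.9 and 21 CPM after naphthalene, against 9.97, 17.8 and 16.5 CPM untreated. All naphthalene libraries lay above the untreated ones, in each genotype and across both. The means were 21.9 ± 2.09 CPM after naphthalene and 15.2 ± 3.23 CPM untreated (SD, n = 6 each), a log2 difference of 0.53 ± 0.14 (SE, adjusted p = 0.0223; 7.16% of all genes called, 4.34% higher). By genotype the difference was 0.53 ± 0.20 in KO mice (adjusted p = 0.253; 1.32% of all genes called) and 0.53 ± 0.20 in C mice (adjusted p = 0.115; 2.39% of all genes called).

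The lowest untreated Lmod1 values, 12.6 and 9.97 CPM, were those of the o libraries. The call was lost without the libraries of letters n, o and i (0.35, adjusted p = 0.257) and with letter terms (0.33, adjusted p = 0.283). It was also lost when only the compared groups were fitted (0.54, adjusted p = 0.0745), and without KO naphthalene replicate 2 or 3, untreated KO replicate 2 or untreated C replicate 1 (0.42 to 0.52, adjusted p between 0.0631 and 0.0811).

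Acta2 and Actg2 were high in the same single libraries at day 5. In KO mice after naphthalene Acta2 had 178, 367 and 268 CPM, against 178, 191 and 168 CPM in untreated KO mice. Actg2 had 18.5, 53.8 and 34.4 CPM in KO mice after naphthalene, against 26, 20.2 and 17.3 CPM untreated. Replicate 2, the i library, was the highest of all 35 for both genes and replicate 1 was at the untreated level. The mean differences over both genotypes, 0.34 ± 0.15 for Acta2 and 0.41 ± 0.20 for Actg2 (log2 ± SE), missed the threshold (adjusted p = 0.153 and 0.177). Without replicate 1 both passed (0.47, adjusted p = 0.0257, and 0.58, adjusted p = 0.024), and without replicate 2 they were 0.21 each.

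Cnn1 at day 5 had 39, 60.5 and 32.3 CPM in KO mice after naphthalene, against 37.2, 32.9 and 45.8 CPM in untreated KO mice. In C mice it had 27.4, 28 and 37.6 CPM after naphthalene, against 45, 67.4 and 42.8 CPM untreated. The C groups did not overlap, with naphthalene below, and the KO groups overlapped. The difference in C mice of -0.74 ± 0.28 (log2 ± SE) missed the threshold (adjusted p = 0.116) and passed without the low-count filter (-0.72, adjusted p = 0.0139). KO minus C in this response was 0.92 (95% interval 0.12 to 1.72, adjusted p = 0.544), the highest of the 10 genes in that contrast. Synpo2 in C mice also lay below without overlap (28.7 to 32.4 CPM after naphthalene, against 33.7 to 36.7 CPM untreated) and was not called.

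Hhip at day 5 had 62, 50.5 and 46.9 CPM in KO mice after naphthalene, against 69.5, 58.9 and 43.7 CPM in untreated KO mice. In C mice it had 61.6, 72.6 and 70.1 CPM after naphthalene, against 36.5, 43.4 and 47.5 CPM untreated. The C groups did not overlap, with naphthalene above, and the KO groups overlapped. The difference in C mice was 0.68 ± 0.21 (adjusted p = 0.0692 by edgeR and 0.0347 by DESeq2), and KO minus C in this response was -0.79 (95% interval -1.39 to -0.18, adjusted p = 0.544). Pdgfra averaged 280 ± 48.9 CPM after naphthalene and 274 ± 84.9 CPM untreated at day 5. Its 2 o libraries had 148 and 191 CPM, against 301 to 360 CPM in the 4 f libraries (o minus f -0.95 ± 0.22 log2, adjusted p = 0.0208), and the i library had 186 CPM, against 284 to 319 CPM in the 5 b libraries.

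Over all genes, 4.34% were called higher at day 5 after naphthalene. Among the wider lists at day 5, Kcnmb1 (0.66 ± 0.14) and Itga7 (0.50 ± 0.14), the laminin-binding muscle integrin, rose of 20 contractile genes and 0 fell, with a median of 0.24. Lgr6 (0.92 ± 0.18) was the 1 alveolar myofibroblast gene of 13 that rose. Dhh (0.76 ± 0.21), a hedgehog ligand, and Gas1 (0.60 ± 0.19), a hedgehog co-receptor, rose of 14 pathway genes. Fibroblast genes Lum (0.99 ± 0.18), Col14a1 (0.75 ± 0.21) and Dcn (0.64 ± 0.14) rose, with all 10 genes of that list above 0. Of 9 pericyte genes Kcnj8 (0.66 ± 0.19) rose and 8 were not called, with 4 of 9 above 0 and a median of -0.13. Of 10 cardiac genes Myl7 (0.76 ± 0.24) rose and 9 were not called, with a median of 0.23. Of 6 skeletal muscle genes Ckm (1.25 ± 0.38) rose and 5 were not called, with 2 of 6 above 0 and a median of -0.11. Without the libraries of letters n, o and i, 1 contractile, 2 alveolar myofibroblast and 2 fibroblast genes were called higher, and 0 of the hedgehog, pericyte, cardiac and skeletal muscle genes. That fit, chosen after seeing the data, also called fewer genes in total, as given at the end.

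At day 7 after naphthalene, where all libraries share the letter p, none of the 10 genes was called by edgeR or DESeq2, at a background of 0.374% of all genes. An unadjusted p under 0.05 was found for 2 of the 10 and for 1077 of all 20606 genes. The median log2 difference of the 10 genes was -0.03, and no gene of the 9 wider lists was called by edgeR. Hhip had 100 and 93.7 CPM in KO mice after naphthalene, against 58, 85.5 and 49 CPM in untreated KO mice. In C mice it had 63.2, 68.2 and 70.7 CPM after naphthalene, against 73.2, 72.2 and 47.5 CPM untreated. The 2 KO libraries were above all others of day 7, but the difference in KO mice of 0.60 ± 0.23 missed the threshold (adjusted p = 0.643; 0.0728% of all genes called, against 0.0388% in C mice). Cnn1 had 35.6 and 28.1 CPM in KO mice after naphthalene, against 58.1, 51.3 and 66.8 CPM in untreated KO mice, without overlap and without a call (-0.88 ± 0.32, adjusted p = 0.581). Lmod1 in KO mice also lay below without overlap (17.3 and 18.1 CPM after naphthalene, against 18.2 to 22.1 CPM untreated) and was not called. For Acta2 the 95% interval of the fold was 0.781 to 1.24, for Myh11 0.731 to 1.24 and for Pdgfra 0.723 to 1.31.

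The naphthalene difference of Hhip thus changed between days, and this was tested directly. It was higher by 0.89 ± 0.21 (log2 ± SE) at day 5 than at day 2 (adjusted p = 0.038; 0.670% of all genes called, 0.451% higher) and by 0.93 ± 0.22 at day 7 than at day 2 (adjusted p = 0.0247; 1.01% of all genes called, 0.461% higher). Hhip was the 1 of 10 genes called in each. Both differences share the day 2 libraries. Untreated Hhip itself averaged 74.4 ± 11.3, 49.9 ± 12.1 and 64.2 ± 15.1 CPM at days 2, 5 and 7 (SD, n = 6 each), while naphthalene libraries averaged 50.1 ± 16.4, 60.6 ± 10.2 and 79.2 ± 16.7 CPM (n = 6, 6 and 5). The untreated difference between days 2 and 5 was not called by edgeR (log2 -0.59 ± 0.15, adjusted p = 0.0667) and was called by DESeq2 (-0.60, adjusted p = 0.0165).

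**Figure D3:**
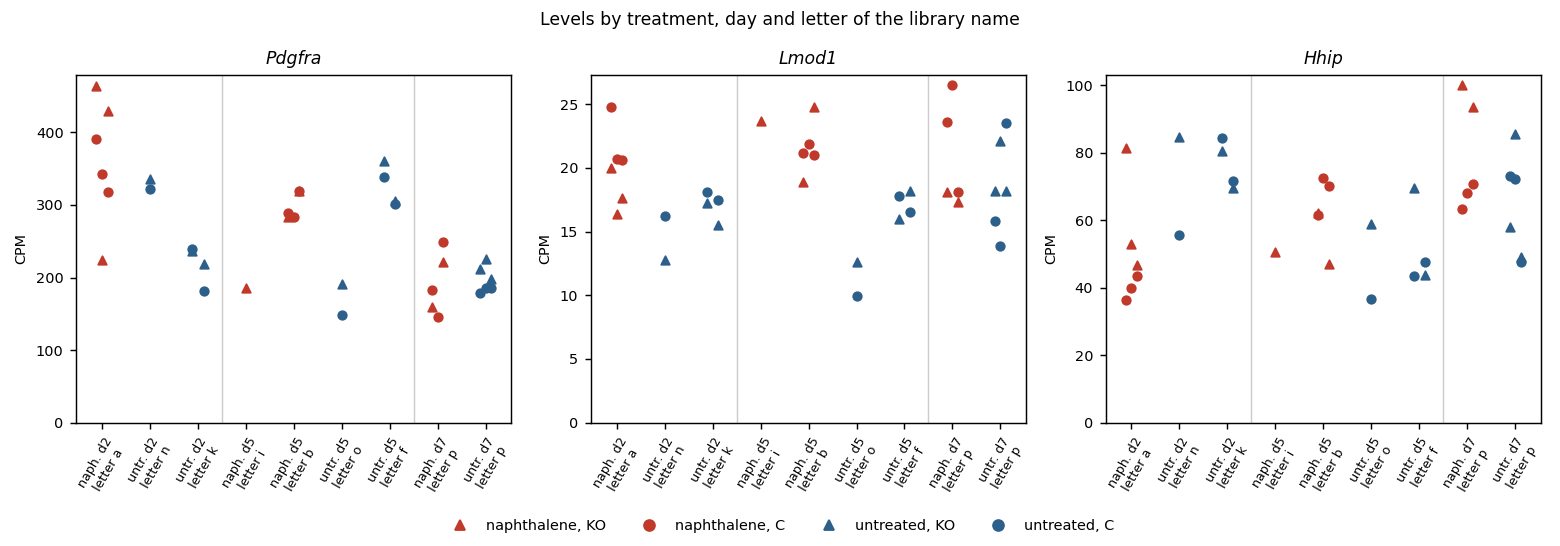
CPM of Pdgfra, Lmod1 and Hhip by treatment, day and letter of the library name; triangles are KO and circles C, with naphthalene in red left of untreated in blue. Pdgfra separates o (148 and 191 CPM) from f (301 to 360 CPM), and the Hhip values of different letters overlap within each treatment and day.

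In untreated mice, 2 of the 10 genes rose between day labels 2 and 7, Cnn1 and Des. Cnn1 had 29.2, 55.2 and 82.1 CPM at day 7 (lowest, median, highest of 6), against 25, 35.8 and 49.4 CPM at day 2 (log2 0.67 ± 0.20 SE, adjusted p = 0.0226). Des had 184, 215 and 297 CPM at day 7, against 150, 164 and 200 CPM at day 2 (0.40 ± 0.13, adjusted p = 0.044). Both ranges overlapped. Of all genes 13.8% were called here and 6.06% higher, so 2 of 10 is a small count against a large background. Des alone was called between days 5 and 7 (0.38 ± 0.13, adjusted p = 0.0402, with 21.6% of all genes called and 10.2% higher). Between days 2 and 5, 0 of 10 were called by edgeR (0.476% of all genes called). An unadjusted p under 0.05 was found there for 1 of the 10 and for 2101 of all 20606 genes. The Des calls were lost without any of 9 of 12 libraries (day 7 minus 2; all but untreated KO day 2 replicate 3, KO day 7 replicate 2 and C day 7 replicate 2) and of 8 of 12 (day 7 minus 5; all but untreated KO day 5 replicate 3, KO day 7 replicate 2 and C day 7 replicates 1 and 2), with adjusted p up to 0.181. The Cnn1 call was lost without untreated KO day 2 replicate 1, KO day 7 replicate 3 or C day 7 replicate 3 (0.44 to 0.61, adjusted p up to 0.123).

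Several alveolar myofibroblast genes outside the 10 were lower at the later untreated day labels. Between days 2 and 5, 6 of 13 fell and 0 rose, with a median of -0.81 (log2), at a background of 0.379% of genes called lower. The list was chosen with earlier results of these data known, so its counts against the background are a description and no test. These were Tgfbi (-1.40 ± 0.21, adjusted p = 0.000872), Fgf18 (-1.30 ± 0.31), Aspn (-1.10 ± 0.22), Wnt5a (-1.09 ± 0.19), Lgr6 (-0.97 ± 0.18) and P2ry14 (-0.81 ± 0.17). Between days 2 and 7, 5 fell, led by Tgfbi (-1.76 ± 0.21) and P2ry14 (-1.21 ± 0.17), with Lgr6 (-0.92 ± 0.18), Wnt5a (-0.78 ± 0.19) and Stc1 (-0.61 ± 0.20), and the median was -0.56 at a background of 7.70% called lower. Tgfbi, an extracellular matrix protein gene induced by TGF-beta, averaged 130 ± 58.6, 49.4 ± 3.09 and 38.7 ± 5.82 CPM in untreated mice of days 2, 5 and 7 (SD, n = 6 each). Wnt5a, a non-canonical Wnt ligand, averaged 76.2 ± 24.4, 36.2 ± 7.23 and 44.6 ± 10.5 CPM. Pdgfra averaged 256 ± 60.4, 274 ± 84.9 and 198 ± 18.4 CPM. Its differences of -0.37 ± 0.20 (day 7 minus 2, adjusted p = 0.209) and -0.47 ± 0.20 (day 7 minus 5, adjusted p = 0.0824) missed the threshold. The second passed under 5 of 19 alternatives: without the libraries of letters n, o and i (-0.73, adjusted p = 0.00208), with letter terms (-0.73, adjusted p = 0.00169), without the low-count filter (-0.48, adjusted p = 0.0112), and without untreated C day 5 replicate 1 (-0.62, adjusted p = 0.0241) or KO day 5 replicate 2 (-0.59, adjusted p = 0.0407). The count of alveolar myofibroblast genes lower at day 5 was 7 without the libraries of letters n, o and i. It fell to 2 without untreated KO day 2 replicate 3, and to 3 without untreated C day 2 replicate 2 or KO day 5 replicate 3. It was 4 without untreated C day 2 replicate 1, KO day 2 replicate 2 or C day 5 replicate 1. The fit of the compared groups alone was not counted for this list. The lowest number of calls over all genes among the alternatives, given at the end, leaves no room for any call in it. Shares over all genes are not given for these settings.

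**Figure D4:**
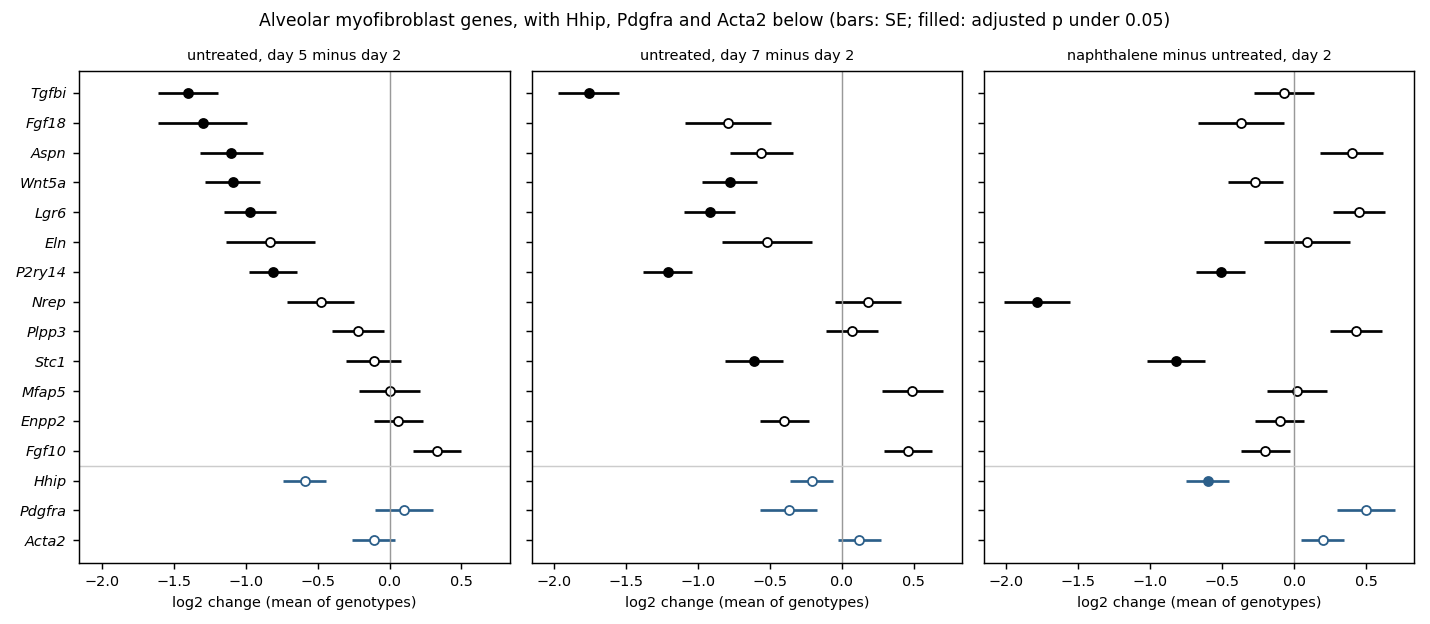
Log2 differences (points, with SE bars) of 13 alveolar myofibroblast genes and, below the line, of Hhip, Pdgfra and Acta2, for untreated day 5 minus day 2, untreated day 7 minus day 2, and naphthalene minus untreated at day 2; filled points have an adjusted p under 0.05. Tgfbi leads the untreated falls (-1.40 and -1.76) and Nrep the naphthalene difference at day 2 (-1.79).

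Contractile genes outside the 10 gave calls mostly upward in untreated mice of day 7 against the earlier days. Between days 2 and 5, 0 of 20 rose and 1, Mustn1, fell, at a background of 0.379% of genes called lower. Over all genes, 6.06% were called higher and 7.70% lower between days 2 and 7. Between days 5 and 7, 21.6% of all genes were called, 10.2% higher. Between days 2 and 7, 4 of 20 rose, Pcp4l1 (0.78 ± 0.13), Csrp1 (0.71 ± 0.19), Ppp1r14a (0.60 ± 0.20), the inhibitor of myosin phosphatase, and Myl9 (0.49 ± 0.14), the regulatory light chain, and Mustn1 fell (-0.68 ± 0.17). The median of the 20 was 0.11. Without the libraries of letters n, o and i, a fit chosen after seeing the data, 1 rose and 2 fell. Shares over all genes are not given for that fit. Between days 5 and 7, 5 of 20 rose, with Csrp1 (0.98 ± 0.19) and Kcnmb1 (0.45 ± 0.14) among them. Of 14 hedgehog genes Gas1 (1.13 ± 0.19), Dhh (0.90 ± 0.21), Gli2 (0.56 ± 0.19), Shh (0.47 ± 0.15) and Sufu (0.44 ± 0.15) rose between these days and Disp1 fell (-0.58 ± 0.19). Among 11 tested regulators, Hopx rose (0.74 ± 0.12) and Klf4 (-0.63 ± 0.17) and Tbx4 (-0.36 ± 0.12) fell between days 2 and 7. Of 10 cardiac genes Nppa (1.79 ± 0.58), Sln (0.80 ± 0.26) and Myl4 (0.80 ± 0.20) also rose and 7 were not called. In that list 8 of 10 were above 0, with a median of 0.39. Nppa was low, at 0.312 ± 0.257 CPM at day 2 and 1.08 ± 0.674 CPM at day 7 (SD, n = 6 each). The sum of the 10 cardiac genes was 357 to 653 CPM at day 7, against 342 to 508 CPM at day 2. Their part in the rise of Des, which heart muscle also expresses, was not tested.

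The genotype made no difference that passed the test. In all 10 contrasts of KO and C, 0 of the 10 genes were called by edgeR or DESeq2, as were 0.00% of all genes by edgeR. In a contrast, 0 to 3 of the 10 and 371 to 3084 of all 20606 genes had an unadjusted p under 0.05. Averaged over the 6 combinations of treatment and day, 2 of the 10 had an unadjusted p under 0.05, Cnn1 (-0.31, 95% interval -0.55 to -0.08, adjusted p = 0.299) and Hhip (0.22, interval 0.05 to 0.40, adjusted p = 0.299). So did 3084 of all 20606 genes in that contrast, and 2 of 10 is near this background. Without the filter on low counts Cnn1 passed (-0.33, adjusted p = 0.0181). The intervals of the fold were 0.812 to 1.05 for Acta2, 0.937 to 1.26 for Myh11 and 0.88 to 1.22 for Pdgfra. At day 2 after naphthalene Cnn1 had 29.8, 31.2 and 38.6 CPM in KO mice and 64, 62.8 and 47.4 CPM in C mice, without overlap. That difference of -0.81 ± 0.28 missed the threshold (adjusted p = 0.756). It passed without the filter on low counts (adjusted p = 0.0455) and when only the compared groups were fitted (0.0451); under the other alternatives it did not. The genotype difference was not of 1 sign across the combinations. For Cnn1, KO minus C after naphthalene was -0.81, 0.50 and -0.79 at days 2, 5 and 7, and in untreated mice -0.48, -0.42 and 0.11. For Hhip it was 0.60, -0.36 and 0.53 after naphthalene, and 0.15, 0.43 and 0.00 in untreated mice, with no call in any of them.

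Within groups, the 10 genes did not vary as 1 block. Deviations of log2 CPM from the group means over 35 libraries are given as a description, since the libraries share depth and scaling. Acta2 went with Actg2 (Pearson r = 0.875) and Cnn1 (0.622), and Cnn1 with Des (0.816). Acta2 and Myh11, both contractile filament genes, gave 0.138. Myh11 went with Synpo2 (0.601) and Pdgfra (0.539). Tagln ran against Pdgfra (-0.744) and Des against Hhip (-0.604).

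**Figure D5:**
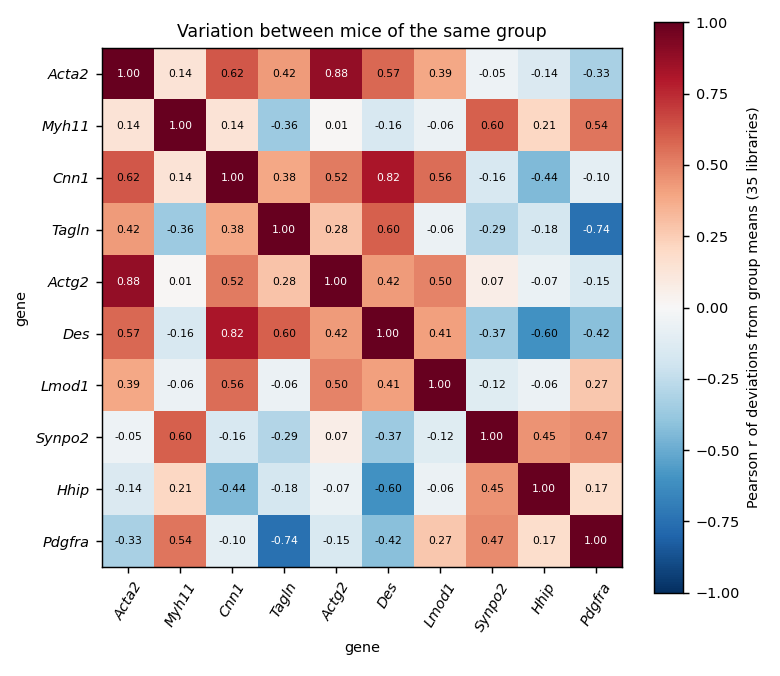
Pearson r between each pair of the 10 genes, from log2 CPM deviations from group means over 35 libraries (red positive, blue negative). Acta2, Actg2, Cnn1 and Des form a positive block (lowest 0.422, Actg2 with Des), and Myh11 lies near 0 with them. Lmod1 (0.386 to 0.555) and Tagln (0.285 to 0.596) were also positive with each gene of this block.

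The relations of 7 pairs of these deviations were tested by permutation (100000 resamples, two-sided, adjusted over the 7). Acta2 went with the summed cardiac genes (r = 0.489, raw p = 0.00276, adjusted p = 0.0193; Spearman rho = 0.506, raw p = 0.00233, adjusted p = 0.0163; r = 0.376 without the 2 farthest libraries). All p of this resampling are too small, because the group means were taken out of the deviations before it. Whether Acta2 and the cardiac sum would pass with this allowed for was not tested, so their relation is a description. Within the 11 libraries of letter p the r of this pair was 0.593, and within the 6 of letter a it was -0.131. In the same order, r with the cardiac sum was 0.67 and -0.439 for Des, and 0.005 and 0.581 for Myh11. The other relations missed the threshold, with raw p between 0.0567 and 0.436 and adjusted p between 0.198 and 0.436: Acta2 with Myh11 (r = 0.138, rho = 0.136), with Hhip (-0.142, rho = -0.17) and with Pdgfra (-0.327, rho = -0.316), Hhip with Pdgfra (0.175, rho = 0.169), and the cardiac sum with Des (0.21, rho = 0.158) and with Myh11 (0.2, rho = 0.24).

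Among 11621 genes with at least 5 CPM on average, those with a pattern over the 35 libraries most like Acta2 were Slc5a6 (Pearson r = 0.682), Osr1, Flnc, Dync2i2 and Faah (0.618 to 0.639). Most like Hhip were Dse (0.764), Robo1, Gyg1, Poglut3 and Col3a1 (0.723 to 0.737). Most like Pdgfra were Slc43a3 (0.888), Abcb1a, Wdfy3, Lox and Fzd4 (0.86 to 0.885).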

How the data were processed

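The deposited table holds whole-number counts per gene for 35 libraries of whole mouse lung, made per the labels' protocols by Trizol extraction and a Watchmaker Genomics mRNA kit; the submitters' processing notes name GRCm39 and DESeq2 without a role. No source used here names the aligner, the counting program, its strand setting or its annotation. In R 4.3.3, edgeR 4.0.16 filtered genes (filterByExpr on 12 groups; 20606 kept, at least 99.87% of counts in every library), scaled by TMM and fitted 1 robust quasi-likelihood model of group means (23 residual degrees of freedom). The 24 contrasts were tested two-sided with Benjamini-Hochberg adjustment over all genes and a threshold of 0.05. CPM used TMM-scaled totals, and log2 CPM a prior count of 2. The procedure was tested on simulated data.

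The 10 genes and the 9 lists were chosen with earlier results of these data known. All 10 are named; from each list the rule gives the called genes (up to 6), the smallest p per direction and the 2 highest genes by CPM, of which some that were not called are left out. Genes like Acta2, Hhip and Pdgfra are the 5 with the highest r. Gli1 is outside this rule and was added after its values were seen. Alternatives were RLE size factors, DESeq2 1.42.0, fits without the low-count filter, fits of the groups compared alone, each library left out, and a replicate block; leaving out the libraries of letters n, o and i, and terms for these letters, were chosen after seeing the data.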

Additional observations from a re-analysis of the deposited data

Results flagged for a closer look

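The naphthalene difference of Hhip was not the same on each day. It was higher by 0.89 ± 0.21 (log2 ± SE) at day 5 than at day 2 and by 0.93 ± 0.22 at day 7 than at day 2, by the contrast of the differences itself (edgeR, adjusted p = 0.038 and 0.0247). Day 2 and day 5 treatments each have letters of their own, and day 7 shares 1 letter. Without the libraries of letters n, o and i the values were 0.92 (adjusted p = 0.0308) and 0.98 (adjusted p = 0.0155). The first call was lost when any of 13 of 24 single libraries was left out (0.81 to 0.90, adjusted p between 0.0516 and 0.102): naphthalene C day 2 replicates 1 and 2, KO day 2 replicate 3, KO day 5 replicate 1 and C day 5 replicates 2 and 3, and untreated C day 2 replicates 1 and 2, KO day 2 replicate 2, C day 5 replicates 1 and 2 and KO day 5 replicates 2 and 3. The second was lost for 6 of 23 (0.83 to 0.90, adjusted p between 0.0529 and 0.0696): naphthalene C day 2 replicate 1, KO day 2 replicate 3 and KO day 7 replicate 1, and untreated C day 2 replicate 1, KO day 7 replicate 3 and C day 7 replicate 3.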

How the results depend on the processing

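The fall of Hhip at day 2 over both genotypes passed under all 19 alternatives run for it (log2 -0.74 to -0.52, adjusted p at most 0.0366), and no called value changed sign. Counts of the 10 genes called moved as follows. Without the low-count filter they were 2 for naphthalene at day 2, 1 in KO and 2 in C mice at day 5, 1 in KO mice at day 7, 2 for day 7 minus day 2 of the naphthalene difference, 1 for both untreated differences from day 2, and 1 for KO minus C on average and at day 2 after naphthalene. With only the compared groups they were 0 for naphthalene at day 5 and for untreated day 7 minus days 2 and 5, and 1 for KO minus C at day 2 after naphthalene. DESeq2 gave 1 for naphthalene at day 5 in C mice and untreated day 5 minus day 2, and 2 for untreated day 7 minus day 5, as RLE size factors did. Without letters n, o and i, or with letter terms, they were 2 for naphthalene at day 2 and day 5 minus day 2 of its difference, 0 at day 5, 1 for untreated day 7 minus day 2 and 2 for day 7 minus day 5; letter terms also gave 1 in KO and 2 in C mice at day 2. Leaving out single libraries gave 1 to 3 for naphthalene at day 2 (3 without KO naphthalene replicate 2) and 0 to 3 at day 5 (3 without KO naphthalene replicate 1), 0 to 1 at day 2 in C and day 5 in C mice, 0 to 2 at day 5 in KO mice, 0 to 1 for both day differences of naphthalene and untreated day 5 minus day 2, and 0 to 2 for the other untreated differences, and 0 elsewhere. The causes were not tested. Over all genes, the calls for naphthalene were 1296 to 2796 at day 2 (2040 as reported; 1296 without KO naphthalene replicate 3), 354 to 4073 at day 5 (1476; 354 with letter terms, 372 without letters n, o and i, 4073 without KO naphthalene replicate 1) and 33 to 209 at day 7 (77). They were 0 to 676 for untreated day 5 minus day 2 (98), 67 to 695 and 107 to 603 for day 5 and day 7 minus day 2 of the naphthalene difference (138 and 209), and 0 to 503 for KO minus C on average (0). A replicate block changed no call among the 10 genes in the 24 comparisons (2006 genes called at day 2, against 2040 without it); replicate numbers did not pair libraries, with r of -0.305 to 0.156 over 17 pairs. Only the compared groups could not be fitted apart for KO minus C over all 6 combinations, which uses every group. The correlations kept their side of the threshold, by the same resampling, whose p are too small. With 2 or 3 libraries in each of the 12 groups, the 95% intervals give the precision of each difference.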
